A study of Mus musculus with 4 samples.

Results

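The oviduct comparison of this series sets the array labelled Gemc1-null against the wild-type (WT) array, gene by gene. It uses 2 of the 4 arrays and holds every gene with a probe set of its own that was measured above a low level. Of 30680 genes named on the array, 19694 reached, on 1 or both of the oviduct arrays, the median signal of all probe sets of that array, and these are the genes described. Both samples were whole oviducts of untreated female mice of 65 days on a mixed C57BL/6 x 129 strain background. The genotype was WT for the first and GEMC1 null for the second, and the tissue was frozen after dissection without culture. The labels do not state how many mice gave each sample, their oestrous stage or which part of the gene is deleted. With 1 array per genotype no difference has a replicate, an error or a test, so genes are described by the size of their difference. Levels are given as log2 RMA signal, the unit in which a step of 1 is a doubling, and a difference is the null level minus the WT level.

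GEMC1, the product of the gene now called Gmnc, is a coiled-coil relative of geminin that acts with E2F factors at the top of the gene programme of multiciliated cells. It is known to act upstream of MCIDAS, FOXJ1, MYB, p73 and the RFX factors, which lead to centriole amplification and to the building of motile cilia. The oviduct epithelium consists of such multiciliated cells, whose beating moves the egg and fluid, and of secretory cells that make oviductal glycoprotein (Ovgp1), mucins and ions for the luminal fluid. The ovary lies against the mouth of the tube, and eggs arrive in it with cumulus cells around them. In whole tissue, fewer cells of a type and less RNA per cell cannot be told apart.

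The 2 arrays were alike over most genes. Their medians over all probe sets were 5.97 (WT) and 6.00 (null), they correlated at r = 0.979 over probe sets, and the median difference over the 19694 genes was 0.05, with quartiles of -0.10 and 0.18; 60.2% of the genes lay above 0 and 39.8% below. Members of the reference gene list differed by between -0.31 (B2m) and 0.22 (Actb). At least 2-fold lower on the null array were 542 genes (2.75%) and at least 2-fold higher were 159 (0.807%). Just inside the limit stood Cfi at -1.003 and Tnfsf10 at 1.003, and just outside it Speer4e at -0.9998 and Aox3 at 0.9999. The only repeat measurement on these arrays is a second probe set for the same gene: in 265 genes the 2 differences lay a median of 0.09 apart, and 95% lay within 0.53. Of 11 such genes whose brighter probe set differed at least 2-fold, all 11 had the same sign on the other probe set and 8 also passed 2-fold there. The 5222 probe sets that the array's identifiers mark as negative controls had medians of 5.77 (WT) and 5.79 (null) and reached 8.71 and 8.74 at their 95th percentile, so a level between these values lies within their range. Levels are set against the median of these controls below, and a fold is given as "at least", against that median, where the dimmer array lay below it. That was so for 212 of the 542 lower genes (39.1%) and for 37 of the 159 higher ones.

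**Figure D1:**
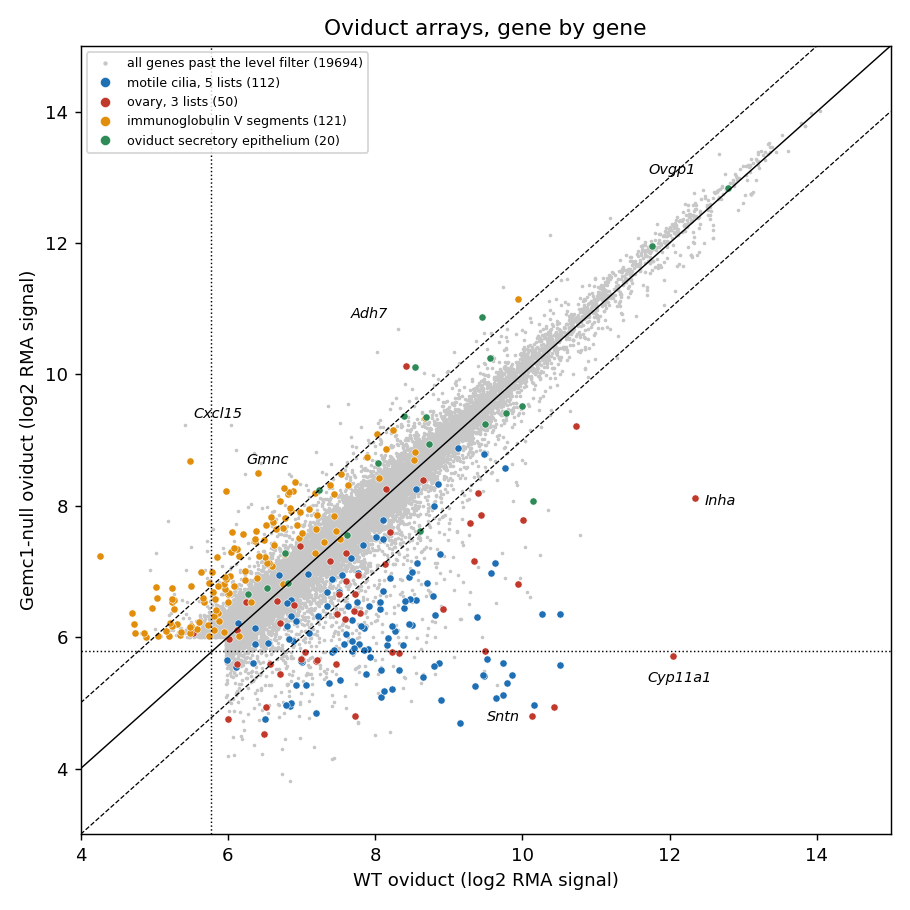
Level of each gene on the WT oviduct array (x axis) and the Gemc1-null oviduct array (y axis), both in log2 RMA signal, with 4 sets of genes coloured; the solid line marks equal levels, the dashed lines 2-fold, and the dotted lines the medians of the negative controls. Of the motile cilia genes 79 of 112 and of the ovary genes 31 of 50 lie on or below the lower 2-fold line, 119 of 121 immunoglobulin segments lie above equality, and Ovgp1 lies on the line of equal levels at 12.79 and 12.84.

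The targeted gene went against its label. Gmnc had a level of 6.11 in the WT oviduct and of 8.86 in the one labelled Gemc1-null, a difference of 2.75, which is 6.72-fold higher and the fifth largest difference above 0 of all genes. The higher level is thus on the array that should lack the transcript if the probe set covers deleted sequence, and where the probe set lies in relation to the deletion is not known here. Of the 3 neighbouring genes on each side, Il1rap was 0.95 higher (5.61 and 6.56) and Ccdc50 was 0.14 higher (8.22 and 8.36), while Cldn16, Tmem207, Ostn and Uts2b were too low on both arrays to pass the level filter. Every direction below is therefore that of the array labelled Gemc1-null.

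The other regulators split between a few large differences and many small ones. Past the filter were 21 regulators of multiciliated fate, 3 of them only through the WT array and 1 only through the null array. Gmnc alone was at least 2-fold higher (4.76%, against 0.807% of all genes). At least 2-fold lower were 4 (19%, against 2.75% of all genes). The levels given in pairs below are WT first and null second. Zfp474, a zinc finger gene of ciliated cells, stood at 8.38 in the WT oviduct and at 5.22 in the null oviduct, at least 6.02-fold lower. Myb, a transcription factor that acts while centrioles multiply, stood at 8.31 and 6.11 (4.58-fold lower). Trp73, which encodes p73, stood at 7.88 and 6.86 (2.03-fold lower), and Fank1, another gene of ciliated cells, stood at 7.13 and 5.86 (2.42-fold lower). Just short of 2-fold were Rfx3 (7.87 and 6.97, a difference of -0.89) and Rfx2 (8.74 and 7.87, -0.87), which encode the factors that bind X-box sequences of ciliary genes. The levels of Mcidas (7.23 and 6.99) and Ccno (6.20 and 5.88) differed by -0.23 and -0.32, and Foxn4 by -0.52 (7.32 and 6.81). The partners through which GEMC1 and MCIDAS reach DNA differed by less than 0.20: E2f4 by -0.03, E2f5 by 0.17, Tfdp1 by -0.09 and Tfdp2 by -0.09. Geminin (Gmnn) differed by -0.11, Rfx1 by 0.13, Rfx7 by -0.03, Ankrd54 by -0.01, Jazf1 by -0.21, Trrap by -0.33 and Sox2 by 0.40. Rfx4 did not pass the filter, and Foxj1 is not reported, since the probe set that lists it also lists Rnf157.

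The parts of the motile cilium made up the largest coherent group among the lower genes. Over 5 lists of motile cilia genes, 115 were measured and 112 passed the filter. Of these, 79 were at least 2-fold lower, against 2.75% of all genes, and none was at least 2-fold higher. Their median difference was -1.73 and their median level 8.04 on the WT array and 6.12 on the null array, and for 38 of them the null level was under the median of the negative controls. Of the 112, 53 passed only through the WT array; over all 115 measured genes the median difference was -1.68 and 112 lay below 0. Some members, such as Spata18, Rgs22 and Stoml3, were listed with their differences in earlier results of these arrays known, so the counts are a description.

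Sentan (Sntn), a protein of the ciliary tip of multiciliated cells and the marker of that cell type used here, stood at 10.15 in the WT oviduct and at 4.96 in the null oviduct, at least 20.6-fold lower. In the same list of tip, membrane and signalling proteins, 23 of 32 genes were at least 2-fold lower (71.9%, against 2.75% of all genes). The median difference was -2.08. Of the 32, 18 passed the filter only through the WT array, and Spata18, Rgs22 and Stoml3 were listed with their differences known. Spata18 stood at 10.51 and 5.57 (at least 26.2-fold lower), the regulator of G-protein signalling Rgs22 at 9.65 and 5.07 (at least 14.5-fold), and the cadherin-related Cdhr3 at 9.85 and 5.42 (at least 16.7-fold). Cfap65 (10.52 and 6.35) and Cdhr4 (10.26 and 6.36) stayed above the negative-control median on the null array but within the range of these controls, with differences of -4.17 and -3.91. The adenylate kinase Ak7, which supplies nucleotides along the axoneme, stood at 9.48 and 5.40, a difference of -4.08. Nearer to equal levels, Capsl stood at 9.48 and 8.78 and the tubulin Tubb4b, which many tissues use, at 8.80 in the WT, with differences of -0.70 and -0.81. Tppp3, a tubulin-binding protein, stood at 9.77 and 8.57, 2.29-fold lower.

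Among the axonemal dyneins, the motors that bend the cilium, 15 of 18 genes were at least 2-fold lower (median -1.87). Dnah5, an outer-arm heavy chain, stood at 9.78 and 5.30, at least 15.9-fold lower, and Dnah9, the chain with which it pairs, at 8.86 and 5.60, at least 8.41-fold lower. The inner-arm chains Dnah6, Dnah12 and Dnah3 differed by -4.62, -4.46 and -3.84, each with the null array below the negative-control median. Dnah8 and Dnah17, heavy chains known from sperm flagella, differed by -0.34 and 0.08 and were near the negative-control median on the WT array too (5.99 and 6.14). Dnah7a and Dnah7c are near-identical copies and may share signal, so their differences of -1.68 and -1.56 are uncertain as separate values. Of 16 factors that assemble and dock dynein arms, 9 were at least 2-fold lower (median -1.29), led by Ccdc39, which sets the ruler of the axonemal repeat (8.16 and 5.88, -2.28), Lrrc6 (7.93 and 5.71, -2.22) and Zmynd10 (8.78 and 6.62, -2.17). The assembly factors Dnaaf2 and Dnaaf5 differed by -0.30 and -0.53.

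Radial spokes, nexin links and the central pair, which control the beat, had 22 of 27 genes at least 2-fold lower (median -1.88). Hydin, a large central-pair protein, stood at 9.73 and 5.60, at least 15.4-fold lower, and the spoke-head gene Rsph4a at 9.47 and 5.42, at least 12.8-fold lower. Cfap206, Nme5 and Odf3b differed by -3.07, -2.60 and -2.50. Rsph3a, Gas8, Rsph9 and Iqcd stayed within 0.53 of their WT levels, and Rsph6a, known from testis, was 0.24 higher. The proteins inside the doublet microtubules had 10 of 19 genes at least 2-fold lower and the least negative median of the 5 lists, -1.03. In it Cfap52 differed most (8.12 and 5.18, -2.94) and Cfap20 (8.55 and 8.25) and Tex9 (6.37 and 6.13) least, by -0.30 and -0.24.

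Genes of intraflagellar transport, which primary cilia also use, and genes of the deuterosome and of centriole amplification differed less than the motile cilia lists. None of 34 genes of intraflagellar transport, the BBSome and their motors was at least 2-fold lower, yet 32 of the 34 lay below 0, with a median of -0.32 against 0.05 over all genes. Traf3ip1 differed by -0.85 (7.66 and 6.81), Ttc26 by -0.68, Ift80 by -0.67, Ift88 by -0.53 and Ift20, the gene of this list with the highest WT level, by -0.08 (10.14 and 10.06). Of 23 genes of the deuterosome and of centriole amplification, 16 lay below 0 (69.6%, against 39.8% of all genes) and the median was -0.14. Of the 23, 7 passed the filter only through the WT array. At least 2-fold lower were 3 (13.0%, against 2.75% of all genes). These were the kinase gene Nek2 (7.51 and 5.83), Cetn4 (7.32 and 5.78) and Ccdc78 (7.99 and 6.79). Deup1, the gene that gives the deuterosome its core, differed by -0.95 but was low on both arrays (6.11 and 5.15), and Cep152 and Sass6, which act in all dividing cells, differed by -0.04 and -0.11. The Notch pathway sets the choice between ciliated and secretory fates in other epithelia. Of its 22 genes, 1 was at least 2-fold lower (4.55%, against 2.75% of all genes), the target gene Hey2 (7.14 and 6.05). None was at least 2-fold higher, and the median was -0.05. Jag1 differed by -0.40, Notch1 by -0.04 and Hes1 by 0.16.

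**Figure D2:**
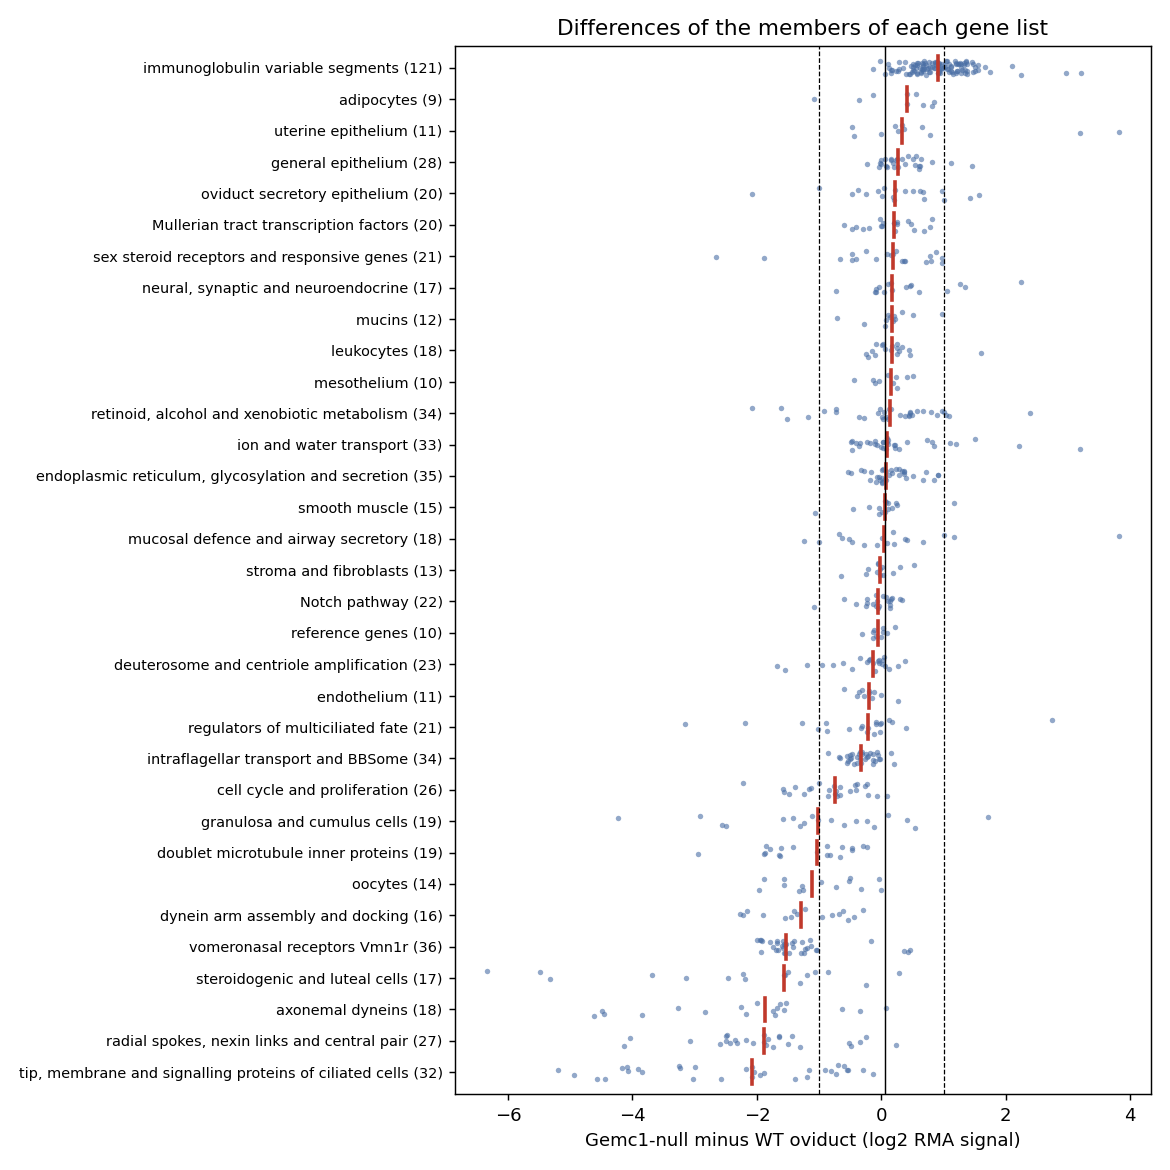
Difference between the Gemc1-null and WT oviduct arrays (x axis, log2 RMA signal) for every member of each gene list that passed the level filter (points, with their number in brackets), with the list's median in red, the median of all genes as a solid line and 2-fold as dashed lines. The 5 motile cilia lists have medians from -2.08 to -1.03, the 3 ovary lists from -1.57 to -1.01, intraflagellar transport has a median of -0.32, and the 36 Vmn1r genes past the filter have a median of -1.53, though 25 of them passed only through the WT array.

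RFX factors bind X-box sequences, so the promoters of the lower genes were searched for the letters of an X-box half-site, ATGGNAAC, on both strands (GTTNCCAT on the other), in the window from 250 bases before to 50 bases after the gene's start in RefSeq (GRCm38.p6). Of the 25 genes with the largest differences below 0, Sntn, Dnah5, Hydin and Cfap44 had a promoter with these letters, and those promoters are shown; each is a stretch of 60 bases on the plus strand, with the matching letters in capitals.
Sntn, chr14:13670784-13670843: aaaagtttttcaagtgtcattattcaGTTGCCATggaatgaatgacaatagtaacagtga
Dnah5, chr15:28203673-28203732: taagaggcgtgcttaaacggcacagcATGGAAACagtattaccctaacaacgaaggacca
Hydin, chr8:110266946-110267005: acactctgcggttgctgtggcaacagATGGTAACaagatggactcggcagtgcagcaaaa
Cfap44, chr16:44394752-44394811: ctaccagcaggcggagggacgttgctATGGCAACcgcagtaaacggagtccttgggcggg

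The match began 66 bases before the start of Sntn, 67 before that of Dnah5, 5 before that of Hydin and 21 before that of Cfap44, and each of these promoters held 1. The letters occurred in 21 of 92 promoters of motile cilia genes past the filter (22.8%), in 56 of 419 promoters of genes at least 2-fold lower (13.4%), and in 540 of 12438 promoters of all genes past the filter (4.34%). Among all 32851 promoters of this length the share was 4.46%. Outside the cilia and ovary lists, 38 of 334 promoters of lower genes held them (11.4%). Of the ovary genes 2 of 34 did (5.88%), of the oviduct secretory genes past the filter 2 of 16 (12.5%), and of the genes at least 2-fold higher 8 of 88 (9.09%). The stricter form ATGGCAAC, which is contained in the first and stands in the promoters of Sntn and Cfap44, occurred in 12.0% of motile cilia promoters, 5.49% of lower genes, 1.14% of higher genes and 1.46% of all genes past the filter. Of the 16 oviduct secretory promoters 1 held the stricter form (6.25%). A match of letters is a description of the sequence and shows no binding.

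Most lower genes were in none of the lists. The motile cilia lists held 79 of the 542 (14.6%), the ovary lists 31 (5.72%) and all lists together 135, which left 407 (75.1%). Past the filter, 21 of 33 genes with the prefix Cfap (63.6%) and 11 of 13 with Dnah (84.6%) were at least 2-fold lower. The share over all genes was 2.75%, and lists and prefixes overlap. Of the other prefixes counted, Ccdc had 18 of 106 (17.0%), Tekt 2 of 4, Efcab 4 of 10 and Ak 2 of 7. Wdr had 8 of 58, Ttc 5 of 37, Spata 2 of 17 and Fam 10 of 136. Tmem, with 3 of 203, lay below the share over all genes. Another group shared a name: 32 of the 542 (5.90%) were genes or pseudogenes of the vomeronasal receptor family Vmn1r, a group noticed after the values were seen. Of 289 Vmn1r genes measured, 36 passed the filter, 25 of them only through the WT array, and 32 of the 36 were at least 2-fold lower. Over all 289 the median difference was -0.01 and 147 lay below 0. Vmn1r118 stood at 8.38 and 6.46 and Vmn1r142 at 7.71 and 5.77. The family holds close copies that may share signal, so the number of separate genes is uncertain. Outside the lists the 25 largest differences included Fam216b (9.66 and 5.27, -4.38), 1700028P14Rik (9.48 and 5.48), the potassium channel regulator Kcnrg (8.21 and 4.55, -3.65) and Agr3, a disulphide isomerase of ciliated airway cells (at least 4.61-fold lower, -3.49). Adam8, a membrane protease gene known from leukocytes and other cells, stood at 10.10 and 6.61, 11.3-fold lower.

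Genes of the ovary were lower on the same array, and the largest of all differences was among them. Cyp11a1, the enzyme that makes pregnenolone from cholesterol and the marker of steroidogenic cells used here, stood at 12.05 on the WT oviduct array and 5.71 on the null array, at least 76.3-fold lower and below the negative-control median. Among 17 genes of steroidogenic and luteal cells, 14 were at least 2-fold lower and none higher (median -1.57). The steroid dehydrogenase Hsd3b1 stood at 10.42 and 4.94 (at least 24.8-fold lower), Akr1cl at 10.13 and 4.80 (at least 20.2-fold), Hsd17b7 at 9.49 and 5.79 (12.9-fold) and Star, which carries cholesterol into mitochondria, at 9.94 and 6.80 (8.81-fold). Hsd3b6, a close copy of Hsd3b1, stood at 6.52 and 4.94 and may share signal with it. The cholesterol receptor Scarb1 (10.01 and 7.78) and the mitochondrial electron carrier Fdx1 (8.24 and 5.78) differed by -2.23 and -2.46.

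In granulosa and cumulus cell genes, 10 of 19 were at least 2-fold lower and 1 was higher (median -1.01). Inha, the inhibin alpha chain, stood at 12.35 and 8.12, 18.8-fold lower, with a null level above the median of the negative controls and under their 95th percentile. The nuclear receptor Nr5a2 (7.73 and 4.81), follistatin Fst (8.32 and 5.76) and the oestrogen-making Hsd17b1 (8.93 and 6.43) differed by -2.92, -2.56 and -2.49. The exception was Kctd14, which stood at 8.42 and 10.13, 3.29-fold higher. Of 14 oocyte genes past the filter, 7 passed 2-fold in the lower direction, and all 22 measured lay below 0 with a median of -0.51. The egg-coat genes Zp2 (6.49 and 4.52), Zp3 (7.47 and 5.59) and Zp1 (6.99 and 5.66) and the growth factor gene Bmp15 (7.19 and 5.63) were below the negative-control median on the null array. Over the 3 ovary lists, 31 of 50 genes were at least 2-fold lower, against 2.75% of all genes, and 1 was higher, with median levels of 7.66 (WT) and 6.38 (null). Of the 50, 19 passed the filter only through the WT array; over all 63 measured the median difference was -1.01 and 55 lay below 0.

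Of 21 sex steroid receptors and responsive genes, 2 were at least 2-fold lower (9.52%, against 2.75% of all genes) and none higher. Above 0 were 13 (61.9%, near the 60.2% of all genes), and the median was 0.19. The lower ones were Esr2 and Fkbp5. The receptor gene Esr2, known from granulosa cells, stood at 8.70 and 6.04 (6.32-fold lower), whereas Esr1 and Pgr, the oestrogen and progesterone receptors of the oviduct itself, stood at 9.78 and 10.56 and at 9.14 and 9.93, 0.78 and 0.79 higher. Fkbp5, a steroid-responsive chaperone gene, stood at 8.09 and 6.21 (-1.88). Among 26 cell cycle genes that passed, 8 were at least 2-fold lower, against 2.75% of all genes, and none higher (median -0.74), led by Mki67 (7.77 and 5.55, at least 3.95-fold), Kif11 (6.55 and 4.97) and Ccnb2 (7.77 and 6.20). Of the 26, 11 passed only through the WT array, and over all 33 measured 32 lay below 0 with a median of -0.73. The labels do not say whether either sample held ovarian tissue. Whether such tissue had a part in the differences of the cell cycle genes, Esr2, Fkbp5 and other lower genes outside the cilia lists was not tested. The motile cilia lists and the 3 ovary lists were both lower, so ciliated and ovarian content cannot be told apart for a gene that both express.

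**Figure D3:**
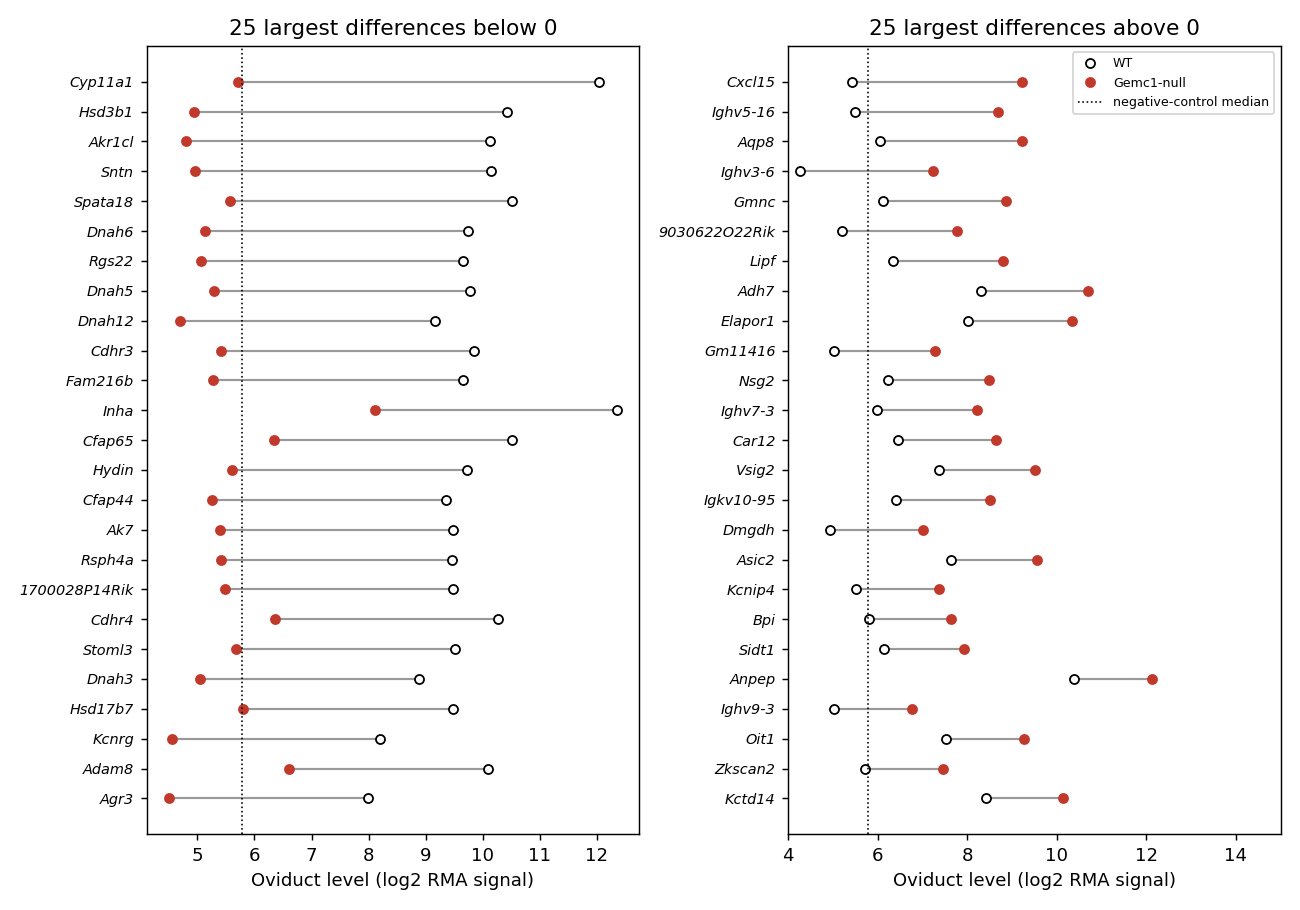
Levels on the WT array (open circles) and the Gemc1-null array (filled circles), in log2 RMA signal, for the 25 genes with the largest differences below 0 (left) and above 0 (right); the dotted line marks the median of the negative controls. The left panel holds ovary genes (Cyp11a1, Hsd3b1, Akr1cl, Inha, Hsd17b7) among motile cilia genes, most of which end below the dotted line, and in the right panel Anpep, Adh7, Elapor1 and Kctd14 reach above 10 on the null array.

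The main product of the secretory epithelium was at nearly the same level in both oviducts. Ovgp1, the oviductal glycoprotein and the marker of secretory cells used here, stood at 12.79 in the WT oviduct and at 12.84 in the null oviduct, a difference of 0.05, as for the median gene. Over the list of oviduct secretory genes, 20 of 21 measured passed the filter, with a median of 0.21. Of the 20, 2 were at least 2-fold higher (10%, against 0.807% of all genes) and 1 was at least 2-fold lower (5%, against 2.75%). Above 0 were 14 of the 20 (70.0%), near the 60.2% of all genes. Highest among them were Cd44, a hyaluronan receptor (8.54 and 10.11, 2.97-fold), and Agr2, a disulphide isomerase needed for mucin folding (9.45 and 10.87, 2.69-fold). Surfactant protein D (Sftpd, 7.24 and 8.24) and Muc1 (8.39 and 9.36) lay just under 2-fold, Muc1 at 0.98. Pax8, the transcription factor of secretory cells in this epithelium, stood at 9.57 and 10.24 (0.68), Wfdc2 at 8.69 and 9.35 (0.67), Krt7 at 8.04 and 8.65 (0.61) and Muc16 at 6.77 and 7.28 (0.50). Pigr, Muc4, Sox17, lactoferrin (Ltf) and Lgr5 were 0.38, 0.23, 0.20, 0.19 and 0.01 higher.

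A few members went the other way. The retinaldehyde dehydrogenase Aldh1a1, which ovarian cells also express, stood at 10.15 and 8.07, 4.21-fold lower, and Lcn2, an iron-binding defence protein, at 8.60 and 7.61, a difference of -0.99. Gpx3, Slc2a1, Clu and Aldh1a2 differed by -0.48, -0.37, -0.25 and -0.06, and Pdzk1 did not pass the filter. The general epithelial genes lay on the higher side: 23 of 28 (82.1%) were above 0, against 60.2% of all genes, with a median of 0.26, and Itgb6 (6.53 and 7.98) and Cdh16 (6.60 and 7.71) passed 2-fold. Epcam and Krt18 were 0.60 and 0.55 higher, while Cdh1 and Krt8 differed by -0.01 and 0.08. Whether these shifts follow from a changed share of secretory cells was not tested.

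Genes for protein secretion and glycosylation moved by less than 2-fold throughout. Among 35 of them none passed 2-fold in either direction and the median was 0.08. The stress sensor Ern1 (8.79 and 9.70), the glycosyltransferases Gcnt3 (9.78 and 10.69) and Fut2 (8.45 and 9.29) and the secretory-cell transcription factors Bhlha15 (6.57 and 7.28) and Xbp1 (10.12 and 10.79) were 0.91, 0.90, 0.84, 0.72 and 0.67 higher. St6gal1 differed by -0.54 (8.34 and 7.80). Of 12 mucin genes none passed 2-fold, while 10 lay above 0 (83.3%, against 60.2% of all genes), with a median of 0.17. The gel-forming Muc5b (6.37 and 6.58) and Muc2 (6.20 and 6.34) were low on both arrays.

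Of 33 genes for the transport of ions and water, 5 were at least 2-fold higher (15.2%, against 0.807% of all genes) and none lower (against 2.75%). Aqp8, a water and peroxide channel, stood at 6.04 and 9.23, 9.12-fold higher. The carbonic anhydrase Car12 stood at 6.44 and 8.65 (4.61-fold), and the proton pump subunit Atp6v0a4 at 6.46 and 7.97 (2.84-fold). Slc12a2, which loads chloride into secretory cells, stood at 8.78 and 9.99 (2.31-fold), and the chloride channel gene Cftr, through which it leaves, at 7.91 and 9.01 (2.14-fold). The list as a whole had a median of 0.09, since the other 28 of its 33 members stayed under 2-fold. The chloride channel gene Ano1 (9.91 and 9.57) and the potassium channel gene Kcne3 (9.78 and 9.31) differed by -0.34 and -0.47. Aqp8 and Car12 were known to be higher when the list was drawn up.

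Cxcl15, a chemokine of lung and uterine glands, had the largest difference above 0. It stood at 5.41 on the WT array, below the negative-control median, and at 9.23 on the null array, at least 11.0-fold higher. Among 11 uterine epithelium markers past the filter, Cxcl15 and Aqp8 were at least 2-fold higher (18.2%, against 0.807% of all genes) and none was lower. Cxcl15 was a marker set for this comparison in advance and Aqp8 was known to be higher, so this share follows from the choice of members. Above 0 were 9 of the 11 (81.8%, against 60.2% of all genes), with a median of 0.32. Of the 11, 2 passed only through the null array, and over all 15 measured 11 lay above 0 with a median of 0.23. The defining gland factor Foxa2 stood at 6.95 and 7.73 (0.78). Other uterine markers differed less, with Calb1 0.32 higher (10.42 and 10.74), Lif 0.36 higher and Wfdc18 at -0.47, and Hoxa10, which marks the uterus along the tract, at 6.69 on both arrays. Of 20 Mullerian tract transcription factors none passed 2-fold, and Pax2, Emx2 and Wt1 differed by 0.21, 0.01 and 0.25. Whether uterine tissue had a part in the difference of Cxcl15 was not tested. Of the secreted defence genes, Scgb3a1 was 2.24-fold higher (6.70 and 7.86) and Nos2 at least 2.01-fold lower (6.80 and 5.56).

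The higher genes also held enzymes of retinoid and alcohol metabolism. Adh7 stood at 8.31 and 10.70 (5.24-fold higher), Dhrs9 at 8.55 and 9.64 (2.13-fold) and Adh1 at 9.58 and 10.62 (2.06-fold). Against them, in the same list of 34 genes, Aldh1a1, Cyp2s1 (9.93 and 8.32), Cyp1b1 (9.12 and 7.60) and Aldh3b1 (9.28 and 8.10) were at least 2-fold lower. So 4 members were lower (11.8%, against 2.75% of all genes) and 3 higher (8.82%, against 0.807%), with a median of 0.14. Outside the lists, the gastric lipase gene Lipf stood at 6.35 and 8.81 (5.49-fold), Elapor1, an endosome and lysosome protein of secretory cells, at 8.02 and 10.34 (4.98-fold), and Vsig2 at 7.36 and 9.52 (4.46-fold). The aminopeptidase Anpep stood at 10.37 and 12.13 (3.37-fold), Bpi, a protein that binds bacterial endotoxin, at 5.80 and 7.64 (3.59-fold), and the acid-sensing channel gene Asic2 at 7.63 and 9.55 (3.79-fold). Vesicle and synaptic genes were higher in part: Nsg2 stood at 6.24 and 8.49 (4.76-fold), Sv2b at 8.67 and 10.02 (2.55-fold), Snap25 at 5.77 and 7.03 (2.40-fold) and Chga at 6.86 and 7.91 (2.07-fold). These were 4 of the 17 neural and neuroendocrine genes past the filter (23.5%, against 0.807% of all genes), 2 of which passed only through the null array. Bpi, Nsg2, Snap25 and Chga lay within the range of the negative controls on both arrays, with Snap25 and Bpi near their median on the WT array. The neural and neuroendocrine list had a median of 0.17. Its other 13 genes stayed under 2-fold, among them the neuronal tubulin Tubb3 (7.52 and 7.42) and Stmn2 (7.15 and 7.19).

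A large share of the higher genes was of one kind. Variable segments of immunoglobulin heavy and kappa chains made up 47 of the 159 (29.6%), a set formed after the values were seen. Of 203 such segments measured, 121 passed the filter, 49 of them only through the null array; over all 203 the median difference was 0.66, 188 lay above 0, and 53 were at least 2-fold higher. Ighv5-16 stood at 5.48 and 8.69 and Igkv10-95 at 6.40 and 8.50. The segments share much of their sequence, so a signal in one may come from another and the count of segments is uncertain. For 35 of the 121 the WT level was under the median of the negative controls. Over all 894 genes with a WT level under 6, of which 732 passed only through the null array, the median difference was 0.27. Background spots differed with base composition, those with 3 G or C bases measuring 3.04 (WT) and 2.51 (null) and those with 22 measuring 7.95 and 8.11, and what part this had in the differences of dim genes was not tested. The joining chain gene Jchain, which links antibodies that are passed into secretions, stood at 5.43 and 7.02, at least 2.38-fold higher. The constant segments differed less: Ighg1 by 0.45, Ighg2b by 0.12 and Ighm by -0.15. The B cell receptor genes Cd79a and Cd79b differed by 0.33 and 0.46, and the 18 leukocyte genes past the filter had a median of 0.17, with Jchain the one past 2-fold. Without variable segments, 112 of 19573 genes (0.572%) were at least 2-fold higher, and the WT level of 19 of these was under the median of the negative controls.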

How the data were processed

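Per the labels' protocols, frozen tissue was disrupted with beads and RNA was isolated on columns. The authors deposited 1 value per probe set and array, made with RMA per the submitters' processing notes, which name no version or settings. These values, as deposited by the authors, are a log2 of the log2 signal: 2 to the power of the value had 6 significant digits in 100% of cells (relative tolerance 1e-09), and all levels are that power. Background correction and quantile normalization therefore stand as deposited, and no raw intensities were used.

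Of 65956 transcript clusters, 31224 listed 1 gene, 1526 listed several and stayed unnamed, and 33206 were not listed in the platform annotation used here. Symbols were updated through a RefSeq table of GRCm38.p6. For the 434 genes with several probe sets, the one with the highest mean over the oviduct arrays was used. No label names the genome build of the probe sets, and the coordinates printed are those of the RefSeq promoters. Counting was tested on simulated data. Python 3.11.15, pandas 2.3.3 and statsmodels 0.14.6 were used.

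Genes named are Gmnc with 3 neighbours on each side, all regulators, the 25 largest differences in each direction, per list the 6 largest differences and 3 highest WT levels, and all secretory and reference genes; a few more were named after their values were seen. The 31 lists (724 genes) and the choice of comparison were made with earlier results of these data known. Alternatives were other fold limits, level filters, probe set means and a lowess centring.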

Additional observations from a re-analysis of the deposited data

How the results depend on the processing

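At 1.5-fold, 1029 genes were lower and 555 higher, and at 3-fold 268 and 35. With genes kept only above the 95th percentile of the negative controls, which left 3932, 126 were lower and 49 higher, and the medians became -3.84 for motile cilia and -2.36 for ovary. Without a level filter the ovary median was -1.01, against -1.27. Under the other alternatives the lower count ranged from 479 to 602 and the higher count from 112 to 169, and the secretory median stayed between 0.15 and 0.21; no median of these 3 groups changed sign under any of the alternatives run. Centring the differences on a lowess curve gave 602 lower and 139 higher, against 542 and 159. Without Vmn1r genes 510 were lower. Raising levels to the negative-control median, and leaving out immunoglobulin variable segments or Vmn1r genes, were chosen after the data were seen. Each genotype has 1 array, so no array could be left out and no difference has an error. No paired analysis was possible because each group holds 1 array.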

Other observations

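Most genes of the supporting tissues of the tube differed by less than 2-fold. Of 15 smooth muscle genes, 1 was at least 2-fold lower (6.67%, against 2.75% of all genes) and 1 higher (6.67%, against 0.807%). These were Synm, 2.09-fold lower (8.32 and 7.26), and Pln, which restrains the calcium pump, 2.25-fold higher (6.27 and 7.44). Acta2, Myh11 and Tagln differed by 0.25, 0.01 and -0.04, and the median was 0.06. None of 13 stromal genes passed 2-fold (median -0.02), with Dcn at 0.30 and Pdgfrb at -0.65, and none of 10 mesothelial genes did (median 0.15). Of 11 endothelial genes none passed 2-fold and 10 lay below 0 (90.9%, against 39.8% of all genes), with a median of -0.20. Eng differed by -0.59 (9.02 and 8.43) and Cdh5 by -0.39 (8.63 and 8.24). Fat cell genes had the highest median of these tissue lists, 0.41 over 9 genes. Fabp4 (6.86 and 7.67) and Plin1 (7.31 and 7.87) were 0.81 and 0.56 higher. Cidea alone was at least 2-fold lower (11.1%, against 2.75% of all genes), by 2.11-fold (7.44 and 6.36).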
